A study of Homo sapiens with 12 samples.

Results

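The classical target genes of YAP and TEAD were examined in gastric cancer cells treated with verteporfin (VP). The 10 genes, CCN1, CCN2, ANKRD1, AMOTL2, AXL, F3, PTPN14, AJUBA, NT5E and TGFB2, were taken by name and by no threshold on a measured value, with earlier results of these data known, out of 20046 gene symbols with a probe, and every probe annotated to them was kept, 16 of 47323. Their expression comes from 12 BeadChips (Illumina HumanHT-12 V4), of which each of 4 groups had 3: AGS cells given VP, AGS cells given DMSO, MKN45 cells given VP and MKN45 cells given DMSO. AGS and MKN45 are human gastric adenocarcinoma cell lines and were grown in RPMI1640 medium, VP is a porphyrin photosensitizer known to disrupt the binding of YAP to TEAD, and DMSO is the vehicle control. The labels give 36 hours of treatment and the methods of the study a longer one, and neither gives the dose used for these chips. Whether the 3 chips of a group hold separate cultures is not given in the sources used here, so that the p-values rest on a spread that may be technical. All 5 epithelial markers tried (EPCAM, CDH1, KRT8, KRT18 and KRT19) were above background on every array, and of 6 markers of leukocytes, endothelium and fibroblasts only COL1A1 was above background on all 3 arrays of a group, in AGS and in 1 of the 2 deposited tables.

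YAP and its paralog TAZ are coactivators that do not bind DNA themselves. When the Hippo kinases LATS1 and LATS2 are inactive, YAP and TAZ enter the nucleus and switch on genes through the TEAD transcription factors, and CCN1, CCN2 and ANKRD1 are the targets used most often to read that activity. The list holds secreted and surface proteins (CCN1 and CCN2, matricellular proteins, AXL, a receptor tyrosine kinase, F3, the tissue factor that starts coagulation, NT5E, an ecto-nucleotidase that makes adenosine, and TGFB2, a ligand of the TGF-beta receptors), a nuclear cofactor (ANKRD1) and regulators that act back on the pathway (AMOTL2 and PTPN14, which bind and restrain YAP, and AJUBA, which restrains LATS kinases).

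The promoters of CCN2, ANKRD1, PTPN14 and F3 are printed to show how the members differ in the letters that TEAD proteins are known to bind, GGAATG, or CATTCC when read on the other strand. Sequences are from RefSeq (GRCh38.p14), are the 250 bases before the annotated start, run 5′ to 3′ on the strand of the gene, and carry each match in capitals.
CCN2 (chr6:131951373-131951622, minus strand): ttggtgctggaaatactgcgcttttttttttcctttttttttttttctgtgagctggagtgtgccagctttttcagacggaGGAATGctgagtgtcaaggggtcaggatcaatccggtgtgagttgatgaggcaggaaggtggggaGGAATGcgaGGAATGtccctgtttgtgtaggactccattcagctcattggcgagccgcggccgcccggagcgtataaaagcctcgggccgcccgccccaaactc
ANKRD1 (chr10:90921088-90921337, minus strand): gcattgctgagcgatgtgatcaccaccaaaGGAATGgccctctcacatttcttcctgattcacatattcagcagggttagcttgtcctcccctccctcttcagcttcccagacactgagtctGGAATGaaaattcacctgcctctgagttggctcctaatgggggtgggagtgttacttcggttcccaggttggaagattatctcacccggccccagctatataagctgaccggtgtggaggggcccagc
PTPN14 (chr1:214551603-214551852, minus strand): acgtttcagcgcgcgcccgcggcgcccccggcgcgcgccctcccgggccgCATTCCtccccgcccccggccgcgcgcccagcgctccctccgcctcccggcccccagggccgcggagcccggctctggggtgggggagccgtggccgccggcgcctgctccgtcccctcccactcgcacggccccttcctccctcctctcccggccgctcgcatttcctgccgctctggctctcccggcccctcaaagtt
F3 (chr1:94541760-94542009, minus strand): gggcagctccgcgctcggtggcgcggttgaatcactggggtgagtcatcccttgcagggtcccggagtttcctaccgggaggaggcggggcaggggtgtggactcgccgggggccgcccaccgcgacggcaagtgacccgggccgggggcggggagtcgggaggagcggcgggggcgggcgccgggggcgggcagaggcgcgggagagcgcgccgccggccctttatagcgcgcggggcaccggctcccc
CCN2 had 3 matches, whose first bases lay 169, 104 and 95 bases before the start, and ANKRD1 had 2, at 220 and 128 bases. PTPN14 had 1, on the other strand at 200 bases, and F3 had none. Of the 10 members, 9 had an entry in the promoter table, with 12 starts between them, CCN1 being the exception. A match was found before 7 of the 12 starts, which belong to 7 genes, and none was found before 1 of the 2 starts of AMOTL2, AXL and AJUBA and before the starts of F3 and NT5E. Of all 35116 promoters of this length in the table, 11.9% held at least 1 match on either strand and 0.94% held more than 1. A match is a description of the letters and was not measured as a bound site.

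**Figure D1:**
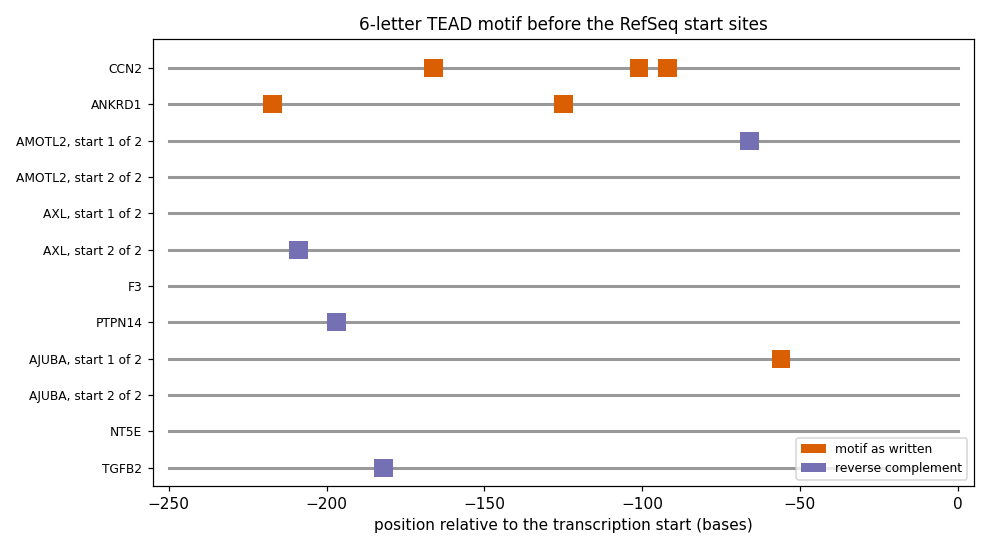
Matches to the 6-letter TEAD motif in the 250 bases before each RefSeq start of 9 members. The horizontal axis is the distance from the start in bases, and each bar is a match as written (orange) or on the other strand (violet). CCN2 holds 3 matches and ANKRD1 holds 2, and the other starts hold 1 or none.

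Each member was read in 2 deposited tables, and these differ. One holds the probe signals with their detection p-values, which were background corrected, quantile normalized over the 12 arrays and brought to the log2 scale. Median raw signals were 98.4 to 137 per array and 14523 to 16571 probes an array were above background (detection p under 0.01). The other table, called the value table here, holds the log2 levels of the authors, normalized by them within each line, so that its levels in AGS and MKN45 are not on one scale. FAT1, which the study found lower with VP, was higher in the AGS VP columns of the signals, so for this gene the direction of the signals opposes that of the study. In AGS, FAT1 ILMN_1754795 had a log2 change of 0.62 by the signals (adjusted p = 0.00137) and -2.17 by the value table (adjusted p = 1.23e-16). In MKN45 these were 0.29 (adjusted p = 0.0855) and -1.50 (adjusted p = 1.63e-13). Over the 15430 probes tested in both, the VP effect of the signals and that of the value table correlated at -0.080 (AGS) and -0.12 (MKN45) by Pearson's r, taken over probes that are not independent of each other. By rank correlation, each of the 12 columns of the value table was most like a signal column of its own line, but it was its own column for 3 of the 12, and the 6 VP columns were all most like a DMSO column. These best matches were closer for the AGS columns (0.929 to 0.939) than for the MKN45 columns (0.879 to 0.886). The lines also stood less apart in the signals. DMSO arrays of AGS and MKN45 had rank correlations of 0.964 to 0.971 there and of 0.897 to 0.899 in the value table. In the signals, VP and DMSO arrays of the same line were less alike than that, at 0.922 to 0.929 in AGS and 0.936 to 0.951 in MKN45. In the value table they were more alike than the lines, at 0.977 to 0.983 and 0.985 to 0.986. MET, a gene known to be amplified in MKN45, was chosen after its values were seen. It averaged 8.79 in AGS DMSO and 9.0 in MKN45 DMSO in the signals, against 8.87 and 12.59 in the value table. In the signals, "VP", "AGS" and the other group names therefore stand for the label of a column. Values of the signals are given first and those of the value table beside them, and it was not tested which of the tables carries the samples as labelled.

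In AGS, the 2 tables shared a lower level of CCN1 and CCN2 with VP, and called ANKRD1, PTPN14 ILMN_1917341 and AJUBA ILMN_1687275 in opposite directions. Of the 14 member probes that passed the filter in the signals, from 8 of the 10 genes, 5 were higher with VP (PTPN14 and AJUBA) and 4 were lower (CCN1, CCN2 and ANKRD1), where 51.6% of all 16021 probes tested were called. By direction, 24.2% of all probes were called higher and 27.5% lower. Of the 5 higher, 3 (PTPN14 ILMN_1750240 and AJUBA ILMN_1811535 and ILMN_1661372) passed the filter only through VP groups. Among the 11 member probes above background in a VP and a DMSO group, a count added after the data were seen, 2 were higher and 4 lower, where 50.9% of all such probes were called, 22.2% higher and 28.8% lower. The value table had 13 member probes of 9 genes tested, of which 1 was higher (ANKRD1) and 7 were lower (CCN1, CCN2, AXL, F3, PTPN14 and AJUBA), against 22.2% of all 18609 probes called, 11.6% higher and 10.6% lower. One of the 7, AXL, passed the filter only through a DMSO group. The members that passed had a median log2 change of 0.13 by the signals (-0.085 over the 11) and -0.20 by the value table, where the median over all probes was -0.032 and 0.020. With the arrays of the signals set to one median in place of quantile normalization, which moved the median of all probes by 0.18, the members split into 7 higher and 1 lower (ANKRD1), where 28.9% of all probes were called higher and 11.3% lower.

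In MKN45, AJUBA ILMN_1687275 was the single probe called in the same direction by both tables, and CCN2 and F3 were called in opposite directions. The signals gave 6 member probes higher with VP (CCN2, F3, PTPN14 and AJUBA) and 3 lower (ANKRD1 and AXL), where 42% of all probes were called, 21.1% higher and 20.9% lower. Among the 11 probes above background in a VP and a DMSO group, 4 were higher and 3 lower, where 40.8% of all such probes were called, 19.2% higher and 21.7% lower. The value table gave 1 higher (AJUBA) and 4 lower (CCN2, F3 and NT5E), where 17% of all probes were called, 8.29% higher and 8.71% lower. The members that passed had a median log2 change of 0.31 by the signals (0.23 over the 11) and -0.069 by the value table, beside medians of -0.023 and 0.012 over all probes. Under the common median, which moved the median of all probes by 0.27 here, the split of the signals was 9 higher and 2 lower, where 31.6% of all probes were called higher and 5.6% lower.

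**Figure D2:**
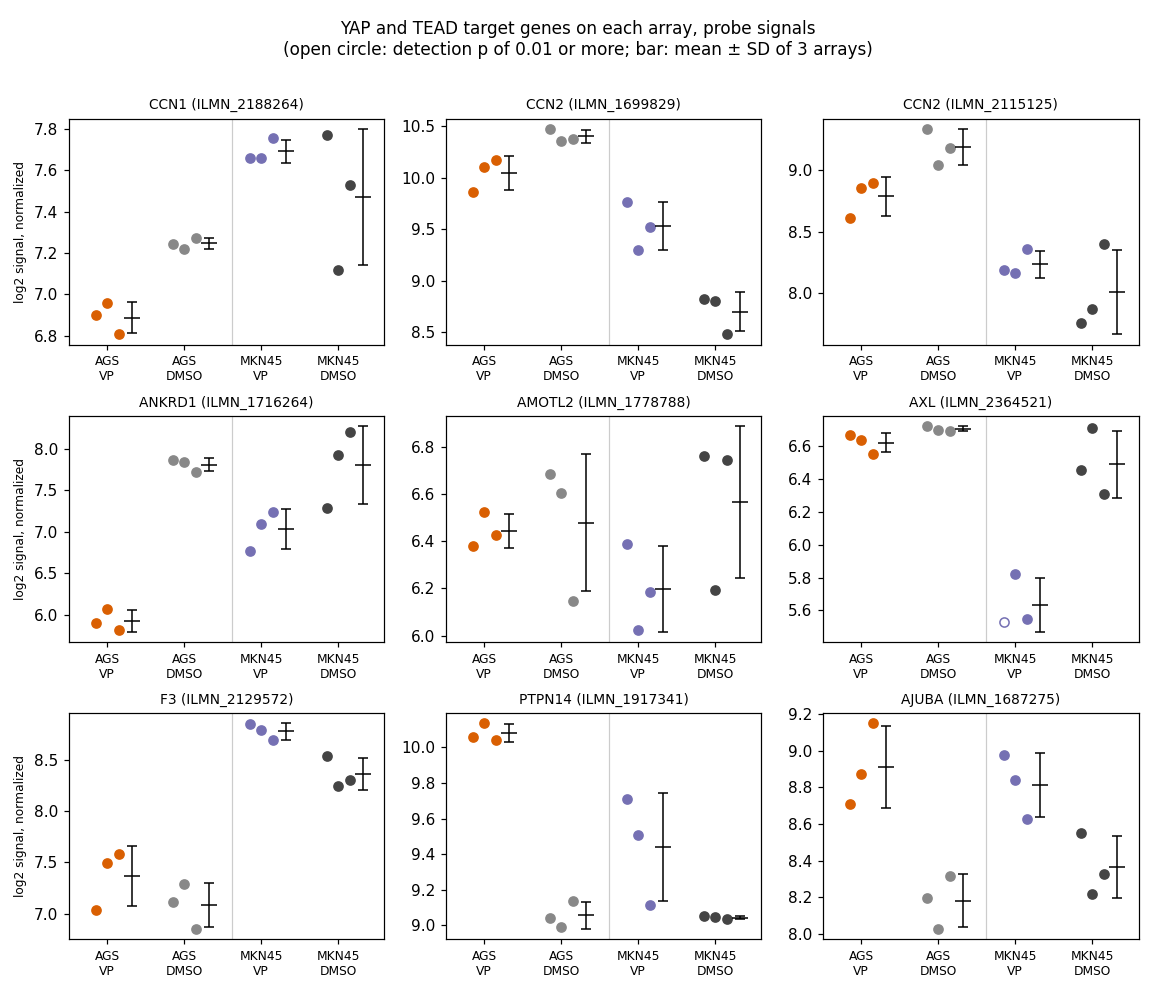
Normalized log2 signal of the members on each of the 12 arrays, with 1 probe a gene and both probes of CCN2. Points are arrays (open where the detection p was 0.01 or more) and bars the mean ± SD of 3 arrays. ANKRD1 is lower on all 3 VP arrays than on every DMSO array of the same line, and PTPN14 and AJUBA are higher.

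The secreted matricellular genes CCN1 and CCN2 were lower with VP in the AGS columns of the signals, and CCN2 was higher with VP in the MKN45 columns. CCN1 (ILMN_2188264, chromosome 1, bases 85580761 to 85583950 of GRCh38.p14) had log2 levels of 6.90, 6.96 and 6.81 in AGS VP, against 7.25, 7.22 and 7.27 in AGS DMSO. The 2 groups did not overlap, as was the case for 57.9% of all probes tested in AGS and 52.3% in MKN45, and the log2 change was -0.36 ± 0.14 (SE, n = 3 each, adjusted p = 0.0406). In MKN45, the levels were 7.66, 7.66 and 7.76 with VP and 7.77, 7.12 and 7.53 with DMSO. These groups overlapped and the change of 0.22 did not pass the test (adjusted p = 0.214, 95% interval -0.075 to 0.51), with 1 DMSO array well below the other two. The AGS call of CCN1 was lost without any single AGS array (adjusted p = 0.0596 to 0.108) and without MKN45 VP replicate 1 or 2 (0.0527 and 0.0536), and under the common median its change was -0.10. That call was also lost without background correction (adjusted p = 0.0585) and with no filter on dim probes (0.0977). CCN1 was called higher in MKN45 without MKN45 DMSO replicate 1 (0.37, adjusted p = 0.0379) and under the common median (0.56, adjusted p = 0.0146).

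CCN2 has 2 probes. The brighter, ILMN_1699829 (gene on chromosome 6, 131948176 to 131951372), had log2 levels of 9.86, 10.11 and 10.17 in AGS VP, against 10.48, 10.36 and 10.37 in AGS DMSO. In MKN45 it had 9.77, 9.30 and 9.52 with VP, against 8.82, 8.80 and 8.48 with DMSO. Neither line had overlapping groups, and the direction turned between the lines, with a log2 change of -0.36 ± 0.14 in AGS (adjusted p = 0.0433) against one of 0.83 ± 0.14, or 1.78-fold higher, in MKN45 (adjusted p = 0.000403). The second probe, ILMN_2115125, was also lower in AGS VP (log2 change -0.40, adjusted p = 0.0464), and did not pass in MKN45 (0.23, adjusted p = 0.264). In AGS the calls of both probes were narrow, and under the common median neither passed (-0.18 each), while ILMN_2115125 was then called higher in MKN45 (0.57, adjusted p = 0.0177). That of ILMN_1699829 was lost on leaving out AGS DMSO replicate 1, 2 or 3, AGS VP replicate 1 or 2 or MKN45 VP replicate 3 (adjusted p = 0.0538 to 0.167). That of ILMN_2115125 was lost without AGS DMSO replicate 1 or 3, any AGS VP array or any MKN45 VP array (adjusted p = 0.0521 to 0.165), and without MKN45 DMSO replicate 3 its MKN45 change became a call (0.42, adjusted p = 0.0261).

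The value table had both genes lower with VP in AGS. CCN1 read 6.87, 7.01 and 6.96 in AGS VP, against 7.25, 7.29 and 7.25 in AGS DMSO, a log2 change of -0.32 ± 0.061 (adjusted p = 0.0005). CCN2 ILMN_1699829 read 9.16, 9.30 and 9.10 in AGS VP, against 3 levels between 9.98 and 10.02 in AGS DMSO, a change of -0.81 ± 0.060 (adjusted p = 3.95e-10). The groups of either gene did not overlap, which held for 34.3% of all probes tested in AGS and 33.2% in MKN45 there, and the second CCN2 probe changed by -0.60 (adjusted p = 2.34e-06). In MKN45, CCN2 ILMN_1699829 read 7.59, 7.65 and 7.62 with VP, against 7.82, 7.96 and 7.86 with DMSO. This was lower with VP (-0.26, adjusted p = 0.0032), opposite in sign to the signals. CCN1 and the second CCN2 probe did not pass in MKN45 there (-0.13, adjusted p = 0.171, and -0.069, adjusted p = 0.61).

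ANKRD1, the nuclear ankyrin-repeat cofactor, fell further in AGS than any other member tested in the signals. ANKRD1 (ILMN_1716264, gene on chromosome 10, 90912096 to 90921087) had log2 levels of 5.91, 6.07 and 5.82 in AGS VP, against 7.87, 7.84 and 7.72 in AGS DMSO. The levels in MKN45 were 6.78, 7.09 and 7.25 with VP, against 7.29, 7.93 and 8.20 with DMSO. The groups of neither line overlapped, with a narrow gap in MKN45 between the highest VP array and the lowest DMSO array. ANKRD1 fell 3.68-fold in AGS (log2 change -1.88 ± 0.19, adjusted p = 4.70e-06) and 1.70-fold in MKN45 (-0.77 ± 0.19, adjusted p = 0.00633). The MKN45 change was -0.46 under the common median (adjusted p = 0.078), and the methods' t-test did not call it (adjusted p = 0.137). The value table went the other way. ANKRD1 read 8.20, 8.26 and 8.22 in AGS VP, against 7.90, 7.83 and 7.73 in AGS DMSO, which was higher with VP by 0.41 ± 0.060 (adjusted p = 2.26e-05). In MKN45 it read 7.76, 7.68 and 7.63 with VP and 7.55, 7.62 and 7.70 with DMSO, which overlapped (0.065, adjusted p = 0.532).

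**Figure D3:**
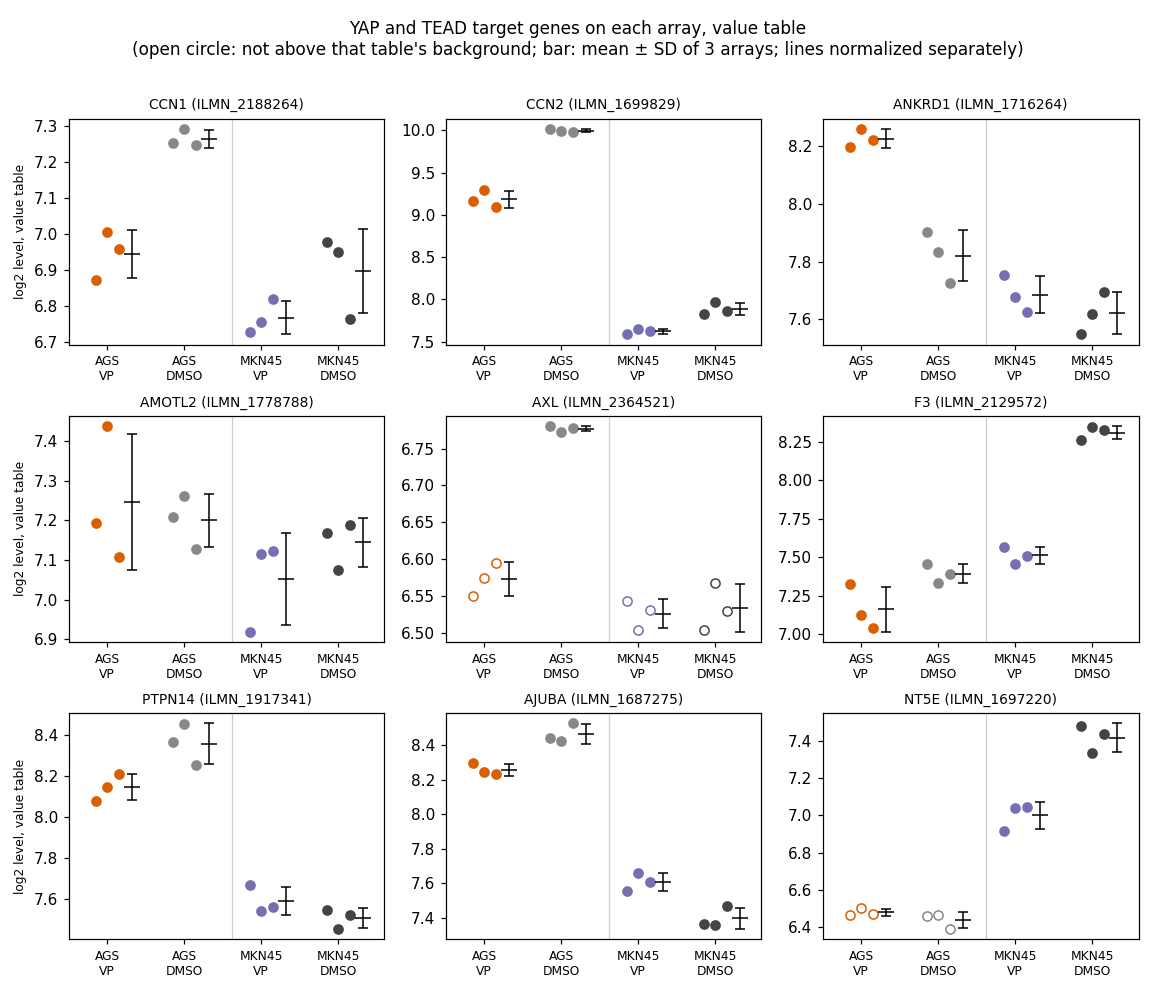
Log2 level of the members on each array in the value table, with the first tested probe of each gene. Points are arrays (open where the level was not above the background of that table), bars the mean ± SD of 3 arrays, and AGS and MKN45 were normalized separately. CCN1 and CCN2 are lower and ANKRD1 is higher on the AGS VP arrays than on the AGS DMSO arrays, and F3 and NT5E are lower on the MKN45 VP arrays.

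Of the surface proteins, AXL was lower with VP in the MKN45 columns of the signals and F3 was higher. AXL ILMN_2364521 (gene on chromosome 19, 41219223 to 41261766) had log2 levels of 5.53, 5.82 and 5.55 in MKN45 VP, against 6.45, 6.71 and 6.31 in MKN45 DMSO. It was above background on 2 of the 3 VP arrays, so the change of -0.86 ± 0.12 (adjusted p = 9.27e-05) is given as measured. The other AXL probe, ILMN_1701877, was above background on all arrays and changed by -0.79 ± 0.16 (adjusted p = 0.00146). In AGS neither probe passed (-0.085, adjusted p = 0.569, and -0.16, adjusted p = 0.425). AXL was near or below the background of the value table. ILMN_2364521 was above it only on the AGS DMSO arrays, which read 6.78, 6.77 and 6.78. This probe was thus at least 1.05-fold lower in AGS VP (adjusted p = 0.0056 for the full change of -0.20, not for the bound). It passed the filter only through that DMSO group, where it is high, and no change is given for MKN45. ILMN_1701877 did not pass the filter there, with means of 6.66 in AGS VP and 6.66 in AGS DMSO and 1 AGS VP array above background.

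F3 ILMN_2129572 (gene on chromosome 1, 94529173 to 94541759) had log2 signals of 8.85, 8.79 and 8.69 in MKN45 VP, against 8.54, 8.24 and 8.30 in MKN45 DMSO. The groups did not overlap and the change was 0.42 ± 0.15 (adjusted p = 0.0432). In AGS it read 7.04, 7.49 and 7.58 with VP and 7.11, 7.29 and 6.85 with DMSO, which overlapped (0.29, adjusted p = 0.133). The second F3 probe, ILMN_1797009, did not pass in either line (0.33, adjusted p = 0.226 in AGS, and 0.43, adjusted p = 0.131 in MKN45), though under the common median it was called in both. The MKN45 call of ILMN_2129572 was lost without any single MKN45 VP array, MKN45 DMSO replicate 2 or 3, AGS DMSO replicate 1 or AGS VP replicate 2 (adjusted p = 0.0512 to 0.123), and without AGS VP replicate 1 it was called in AGS (0.46, adjusted p = 0.0212).

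F3 had the opposite sign in the value table. ILMN_2129572 read 7.57, 7.46 and 7.51 in MKN45 VP, against 8.26, 8.35 and 8.33 in MKN45 DMSO, a log2 change of -0.80 ± 0.066 (adjusted p = 7.82e-09). ILMN_1797009 read 6.78, 6.85 and 6.89 in MKN45 VP, against 7.32, 7.41 and 7.51 in MKN45 DMSO, a change of -0.57 ± 0.059 (adjusted p = 2.48e-07). Both probes thus gave separate groups in MKN45. In AGS the changes were smaller, -0.23 (adjusted p = 0.0141) and -0.12 (adjusted p = 0.146).

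Of the regulators that act back on the pathway, PTPN14 and AJUBA were higher with VP in the signals. PTPN14, a phosphatase that binds YAP, was read by ILMN_1917341 (gene on chromosome 1, 214348700 to 214551602) at 10.06, 10.14 and 10.04 in AGS VP, against 9.04, 8.99 and 9.14 in AGS DMSO. In MKN45 the log2 levels were 9.71, 9.51 and 9.11 with VP, against 9.05, 9.04 and 9.04 with DMSO. The AGS arrays stood far apart, and in MKN45 the lowest VP array came close to the DMSO arrays. PTPN14 rose 2.03-fold in AGS (1.02 ± 0.13, adjusted p = 2.76e-05) and 1.32-fold in MKN45 (0.40 ± 0.13, adjusted p = 0.0248). Its other probe, ILMN_1750240, was higher too, by 1.52 in AGS VP (adjusted p = 7.14e-05) and 0.95 in MKN45 VP (adjusted p = 0.0036), with 2 of 3 DMSO arrays above background in either line. That probe passed the filter only through VP groups, where it is high. The methods' t-test did not call it in MKN45 (adjusted p = 0.0896). The MKN45 call of ILMN_1917341 was lost without any single MKN45 DMSO array or MKN45 VP replicate 1 or 2 (adjusted p = 0.0516 to 0.122), and with each line fitted alone (0.0606).

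AJUBA has 3 probes. ILMN_1687275 (gene on chromosome 14, 22971177 to 22982551) had log2 levels of 8.71, 8.87 and 9.15 in AGS VP, against 8.20, 8.03 and 8.32 in AGS DMSO. In MKN45 it had 8.98, 8.84 and 8.63 with VP, against 8.55, 8.22 and 8.33 with DMSO. Neither line had overlapping groups, and AJUBA rose 1.66-fold in AGS (0.73 ± 0.14, adjusted p = 0.000764) and 1.36-fold in MKN45 (0.45 ± 0.14, adjusted p = 0.021). ILMN_1811535 was above background on all VP arrays and on no DMSO array, which gave a level at least 1.68-fold higher in AGS VP (adjusted p = 4.63e-06) and at least 1.70-fold higher in MKN45 VP (adjusted p = 2.50e-05). ILMN_1661372 was above background only on the AGS VP arrays, at least 1.10-fold higher than in AGS DMSO (adjusted p = 0.0161). Those bounds set the mean of the VP arrays against the lowest level among detected probes of each DMSO array, or the probe's own where higher. The adjusted p-values beside them are of the full log2 changes (2.09, 1.84 and 0.68), with undetected arrays at their own levels. The bounds themselves were not tested. Both of these probes, and PTPN14 ILMN_1750240, passed the filter only through VP groups, so they could enter the test only by being high there. The MKN45 call of ILMN_1687275 was lost without MKN45 DMSO replicate 2 or 3 or MKN45 VP replicate 1 or 2 (adjusted p = 0.0602 to 0.0879), and the AGS call of ILMN_1661372 without AGS DMSO replicate 2 or AGS VP replicate 3 (0.0782 and 0.0745).

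The regulators moved little in the value table. PTPN14 ILMN_1917341 read 8.08, 8.15 and 8.21 in AGS VP, against 8.37, 8.45 and 8.25 in AGS DMSO, a log2 change of -0.21 (adjusted p = 0.0159). AJUBA ILMN_1687275 read 8.30, 8.24 and 8.23 in AGS VP, against 8.45, 8.42 and 8.53 in AGS DMSO, a change of -0.21 (adjusted p = 0.00944). Both were lower in AGS, where the signals had them higher. In MKN45, AJUBA ILMN_1687275 read 7.55, 7.66 and 7.61 with VP, against 7.36, 7.36 and 7.47 with DMSO, a change of 0.21 (adjusted p = 0.0111), the only member probe called higher with VP in MKN45 in both tables. PTPN14 did not pass in MKN45 (0.082, adjusted p = 0.425). Its other probe passed in neither line (0.14, adjusted p = 0.136 in AGS, and 0.012, adjusted p = 0.939 in MKN45).

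AMOTL2, an angiomotin that holds YAP at junctions, did not pass in any line or table. In the signals ILMN_1778788 (gene on chromosome 3, 134355345 to 134375417) had log2 levels of 6.38, 6.52 and 6.43 in AGS VP and 6.69, 6.60 and 6.15 in AGS DMSO, a change of -0.034 (95% interval -0.41 to 0.34). In MKN45 it had 6.39, 6.02 and 6.19 with VP and 6.76, 6.19 and 6.74 with DMSO, a change of -0.37 (95% interval -0.74 to 0.0056, adjusted p = 0.104), which became a call without MKN45 DMSO replicate 2 (-0.55, adjusted p = 0.0167). The groups overlapped in both lines. The value table gave changes of 0.047 (AGS, adjusted p = 0.717) and -0.092 (MKN45, adjusted p = 0.47).

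NT5E and TGFB2 had 1 probe each and were not above background on any array of the signals. TGFB2 was not above background in the value table either, so no change is given for it. NT5E (ILMN_1697220, gene on chromosome 6, 85450083 to 85495784) read 6.91, 7.04 and 7.04 in MKN45 VP, against 7.48, 7.33 and 7.44 in MKN45 DMSO, in the value table. All 6 of these were above background and the groups did not overlap, with a log2 change of -0.42 ± 0.058 (adjusted p = 1.43e-05). On the AGS arrays NT5E was below background with VP and with DMSO. NT5E, TGFB2 and PTPN14 ILMN_1750240 lie past row 21197 of the value table, where each level belongs to the probe of the next row, and their values are those after that move.

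**Figure D4:**
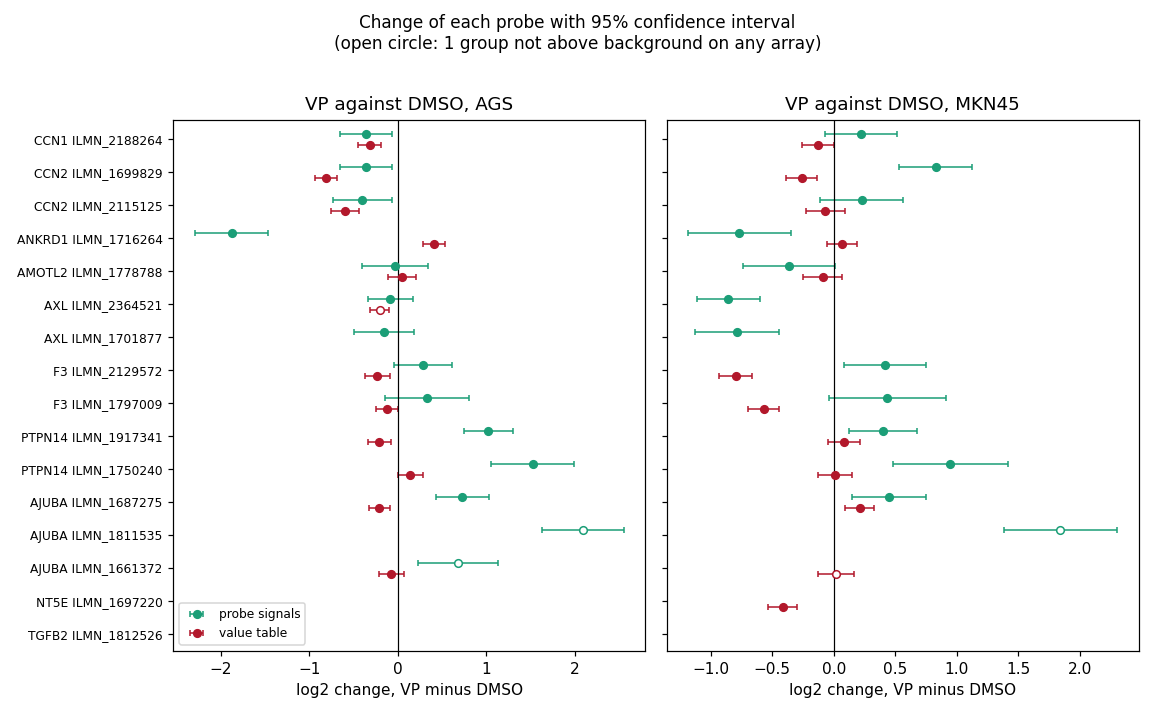
Log2 change of each member probe, VP minus DMSO, in AGS (left) and MKN45 (right), from the signals (green) and the value table (red). Bars are 95% confidence intervals and open circles mark probes with 1 group at background on all its arrays. In AGS, CCN1 and CCN2 lie left of 0 in both tables and ANKRD1 lies at -1.88 (signals) and 0.41 (value table). In MKN45, F3 ILMN_2129572 lies at 0.42 and -0.80.

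Whether VP acted differently in the lines was tested by the difference of its effects, AGS minus MKN45. In the signals 3 of 14 member probes passed, where 9.04% of all probes did (4.44% higher and 4.61% lower in AGS): CCN2 ILMN_1699829 with -1.19 (adjusted p = 0.00358), ANKRD1 with -1.11 (adjusted p = 0.0258) and AXL ILMN_2364521 with 0.77 (adjusted p = 0.0143). The second probes of CCN2 and AXL had the same sign and did not pass (-0.63 and 0.63, adjusted p = 0.0931 and 0.0934). Of 13 member probes in the value table, 8 passed (4 higher in AGS and 4 lower), where 8.53% of all probes did, 3.89% higher and 4.65% lower. They were both CCN2 probes, ANKRD1, both F3 probes, PTPN14 ILMN_1917341, AJUBA ILMN_1687275 and NT5E. The lines were normalized separately there, so the 2 effects of a probe stand on separate scales. The term cannot tell a difference of scale from a difference of effect in that table. CCN2 ILMN_1699829 was the single probe that passed with the same sign in both tables, at -1.19 (signals) and -0.55 (value table). Its MKN45 effect nonetheless had opposite signs in the 2 tables. Its effects in AGS and MKN45 were -0.36 and 0.83 by the signals, and -0.81 and -0.26 by the value table. NT5E entered that list with AGS arrays all at background, and ANKRD1 had opposite signs in the 2 tables. The ANKRD1 call of the signals was lost without AGS DMSO replicate 1, AGS VP replicate 1 or MKN45 VP replicate 2 or 3 (adjusted p = 0.0541 to 0.0600). The AXL call was lost under the common median (0.86, adjusted p = 0.0732) and without background correction (0.31, adjusted p = 0.0625).

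Between the lines without drug, CCN2 and F3 differed. In the signals, where the lines share one scale, CCN2 averaged 10.40 ± 0.065 in AGS DMSO and 8.70 ± 0.19 in MKN45 DMSO (log2 level, SD, n = 3 each) by ILMN_1699829. This was a 3.25-fold higher level in AGS (adjusted p = 3.23e-06), and the second probe was 2.26-fold higher (adjusted p = 0.000237). F3 ILMN_2129572 was lower in AGS, at 7.08 ± 0.22 in AGS DMSO and 8.36 ± 0.16 in MKN45 DMSO (-1.28, adjusted p = 9.99e-05). These 3 of 14 member probes were called, where 15.2% of all probes were (8.18% higher and 7.03% lower in AGS), and none of the 3 had overlapping groups, as for 30.6% of all probes. The other F3 probe had the same sign and did not pass (-0.68, adjusted p = 0.056), and was called without AGS DMSO replicate 3, AGS VP replicate 2 or 3 or MKN45 VP replicate 1 (adjusted p = 0.0335 to 0.0492). CCN1 did not pass (-0.23, adjusted p = 0.304) except without MKN45 DMSO replicate 2 (-0.40, adjusted p = 0.0276). The difference of ANKRD1 was 0.0037 (95% interval -0.41 to 0.42). For CCN2 ILMN_1699829 the 4 groups ran from MKN45 DMSO (8.70) through MKN45 VP (9.53) and AGS VP (10.04) to AGS DMSO (10.40), and for ANKRD1 from AGS VP (5.93) through MKN45 VP (7.04) to MKN45 DMSO (7.81) and AGS DMSO (7.81), the last pair not differing beyond their spread.

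A second list of 13 genes also known as YAP targets (MYOF, LATS2, ASAP1, IGFBP3, CRIM1, FJX1, FOXF2, GADD45A, CCDC80, DOCK5, ARHGEF17, NUAK2 and RBMS3) was read for context. In the signals 13 of its 23 probes were tested, from 7 genes. With VP in AGS 6 were higher and 3 lower, where 51.6% of all probes were called, 24.2% higher and 27.5% lower. In MKN45 3 were higher and 1 lower, where 42% were called, 21.1% higher and 20.9% lower. LATS2, counted higher in AGS, passed the filter only through AGS VP, and CRIM1, counted lower in both lines, only through MKN45 DMSO. Over the other 11 probes the counts were 5 higher and 2 lower in AGS and 3 higher and 0 lower in MKN45. Of all probes above background in a VP and a DMSO group, 22.2% were called higher and 28.8% lower in AGS. In MKN45 these shares were 19.2% and 21.7%. The median log2 change of the 13 probes was 0.22 in AGS and 0.11 in MKN45, where that over all probes was -0.032 and -0.023. GADD45A, a stress-induced growth arrest gene, had the smallest p among those higher in both lines, at 0.56 (AGS, adjusted p = 0.000498) and 0.95 (MKN45, adjusted p = 1.76e-05). Next were ASAP1, a GTPase-activating protein, in AGS (0.69, adjusted p = 0.00141) and NUAK2, a kinase of the AMPK family, in MKN45 (0.45, adjusted p = 0.0107). Lower in AGS were CRIM1, a transmembrane regulator of BMP ligands, at least 1.28-fold (adjusted p = 0.013 for the full change of -0.51), and MYOF, a ferlin of the plasma membrane (-0.39, adjusted p = 0.0143). CRIM1 was the 1 lower gene in MKN45 (-0.50, adjusted p = 0.018, 2 of 3 VP arrays above background). It could enter the test only by being bright in MKN45 DMSO. Of 14 probes tested in the value table, 4 were higher and 1 lower in AGS, where 22.2% of all probes were called, 11.6% higher and 10.6% lower. In MKN45 1 was higher and 2 lower, where 17% of all probes were called, 8.29% higher and 8.71% lower. GADD45A was higher in AGS in the value table too, at 0.37 by ILMN_2052208 (adjusted p = 2.69e-05). In MKN45 that probe did not pass there (0.09, adjusted p = 0.31), and ILMN_1694075 was higher by 0.19 (adjusted p = 0.0281). CRIM1, which again passed only through DMSO groups, was lower in AGS (-0.31, adjusted p = 0.000345), while MYOF was higher in AGS (0.31 by ILMN_2370976, adjusted p = 0.00154).

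The genes of the effectors themselves were measured as well. YAP1 averaged 10.07 in AGS VP and 9.99 in AGS DMSO in the signals, a change of 0.078 (adjusted p = 0.598), and 9.91 in MKN45 VP and 10.09 in MKN45 DMSO, a change of -0.18 (adjusted p = 0.234). The value table gave YAP1 as higher in MKN45 VP (0.28, adjusted p = 0.00444), and it did not pass in AGS (-0.13, adjusted p = 0.173). WWTR1, which encodes TAZ, and TEAD1 did not pass the filter in the signals. WWTR1 averaged 7.67 in MKN45 VP and 7.56 in MKN45 DMSO by the value table (adjusted p = 0.292). TEAD2, TEAD3 and TEAD4 were lower with VP in AGS in the signals, with log2 changes of -0.46, -0.58 and -0.43 (adjusted p = 0.00358, 0.000498 and 0.00986, TEAD4 by ILMN_1705301). The other tested TEAD4 probe, ILMN_2413041, did not pass in AGS (-0.30, adjusted p = 0.143). Both tested TEAD4 probes were lower in MKN45 (-0.67 and -0.51, adjusted p = 0.000784 and 0.0226). TEAD2 and TEAD3 did not pass in MKN45 (-0.27, adjusted p = 0.0708, and -0.17, adjusted p = 0.226). In the value table none of the TEAD probes was called lower, and TEAD4 ILMN_1705301 was higher in AGS (0.17, adjusted p = 0.0321).

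The genes whose normalized signals ran most like those of the matricellular pair over the 12 arrays were FASTKD1 (Pearson r = 0.946), FHIP2A (0.940) and SNX19 (0.938) for CCN1, and MLLT6 (0.971), ZNF518A (0.968) and MTNAP1 (0.961) for CCN2 ILMN_1699829, out of 12805 probes with a gene name. These are descriptions over arrays that share 4 groups and one normalization.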

How the data were processed

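Per the labels, RNA of AGS and MKN45 cells was hybridised to Illumina HumanHT-12 V4 BeadChips, 3 arrays a group. The authors deposited a table of probe intensity with a detection p-value for each array, exported from GenomeStudio according to the submitters' processing notes. They also deposited a table of scores for the same arrays, log2 values in all rows but the last. In these deposited log2 values the sorted levels were identical within 0.001 among the 6 arrays of a line, and past row 21197 (26126 rows) each value belonged to the probe of the next row, so names were moved by 1 and the last row, linear, was left out. Intensities were corrected with normexp from the detection p-values (offset 16), quantile normalized over 12 arrays and log2 transformed by neqc in limma 3.58.1 (R 4.3.3). Probes with detection p under 0.01 on all 3 arrays of a group were kept (16021 of 47323, and 18609 in the value table by its own background). Group means were fitted with lmFit over all 12 arrays, moderated with eBayes and adjusted by Benjamini-Hochberg over all probes tested, with 0.05 as the threshold. The fit was tested on simulated data. Of the probes, 30113 had 1 gene symbol, 8 had several and 17202 none, and 30074 were matched by Entrez number with 0 symbols changed. All probes of a member were described, and of the second list the 2 genes with the smallest p in each direction and line. Members and lists were chosen with earlier results of these data known. A detected mean against undetected arrays is given as a bound, and the p-value beside it is that of the full log2 change. Alternatives were the value table, a median shift, other backgrounds and filters, a replicate block, the methods' t-test (as a plain two-sample test in place of their random-variance one), each line alone, leaving out each array and, added after the data were seen, only probes above background in a VP and a DMSO group.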

Additional observations from a re-analysis of the deposited data

Results flagged for a closer look

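By the interaction term of the fit, 3 of 14 member probes in the signals differed between AGS and MKN45 in the effect of VP. Of all probes tested, 9.04% passed. As AGS minus MKN45 on the log2 scale, CCN2 ILMN_1699829 differed by -1.19, ANKRD1 by -1.11 and AXL ILMN_2364521 by 0.77 (limma, adjusted p = 0.00358, 0.0258 and 0.0143). The ANKRD1 call was lost with no filter on dim probes (adjusted p = 0.0779). ANKRD1 and AXL had the opposite sign in the value table, where AXL did not pass (-0.20, adjusted p = 0.0995) and was near background.

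The same term in the value table passed for 8 of 13 member probes, where 8.53% of all probes passed. CCN2 ILMN_1699829 differed by -0.55 and ILMN_2115125 by -0.53 (limma, adjusted p = 0.000174 and 0.00265). F3 ILMN_2129572 differed by 0.57 and ILMN_1797009 by 0.45 (adjusted p = 0.000342 and 0.00128). ANKRD1 differed by 0.34 and PTPN14 ILMN_1917341 by -0.29 (adjusted p = 0.0140 and 0.0381). AJUBA ILMN_1687275 differed by -0.42 and NT5E by 0.46 (adjusted p = 0.00153 and 0.000851), the AGS arrays of NT5E being at background.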

How the results depend on the processing

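In the signals the count of member probes called was 9 in AGS, 9 in MKN45, 3 between the lines and 3 for the difference of the VP effects. Each is out of 14, and 51.6%, 42%, 15.2% and 9.04% of all probes were called. Leaving out 1 array gave member counts of 6 to 9, 6 to 9, 3 to 4 and 2 to 5. No filter on dim probes gave 5 in AGS. The methods' t-test, run as a plain two-sample test with Benjamini-Hochberg adjustment, gave 3 in MKN45 and 6 in AGS. With it 27.7% of all probes passed in MKN45 and 38% in AGS. At the unadjusted threshold that the methods give it passed 2 of 14 member probes in AGS, 0 in MKN45 and 1 between the lines, where 12.5%, 7.72% and 2.35% of all probes passed. The value table gave 5 in MKN45 and 8 for the difference of the effects, each out of 13, where 17% and 8.53% of all probes were called. With its names as deposited the member counts were 4 and 7. Arrays set to one median, with no quantile normalization, gave 7 higher and 1 lower in AGS, and 9 higher and 2 lower in MKN45. Of all probes under that setting, 28.9% were called higher and 11.3% lower in AGS, and 31.6% and 5.6% in MKN45. The 11 member probes above background in a VP and a DMSO group, counted after the data were seen, gave 6 in AGS and 7 in MKN45. Of all such probes, 50.9% and 40.8% were called. The replicate number as a block gave 8 calls in AGS, 8 in MKN45 and 3 for the difference, without CCN2 ILMN_1699829 in AGS (adjusted p = 0.055) and F3 ILMN_2129572 in MKN45 (0.052). For 1 array left out, no filter, the names as deposited and the block, the share over all probes is not given here. Those counts are therefore no result about the members. Same-numbered VP and DMSO arrays deviated with correlations of -0.11 to 0.18 in AGS and -0.029 to 0.21 in MKN45, so the numbers were not taken as pairs.

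Signs turned in the value table, whichever way its names were read, for AGS ANKRD1 (0.41), AMOTL2 (0.047), F3 (-0.23 and -0.12), PTPN14 ILMN_1917341 (-0.21) and AJUBA (-0.21 and -0.072). In MKN45 they turned for CCN1 (-0.13), CCN2 (-0.26 and -0.069), ANKRD1 (0.065) and F3 (-0.80 and -0.57), and for the difference of the effects of ANKRD1 (0.34) and AXL ILMN_2364521 (-0.20). That AXL difference did not pass (adjusted p = 0.0995), and the probe was above the background of the value table only on the AGS DMSO arrays. One median for all arrays turned AMOTL2 (0.22) and AXL (0.18 and 0.096) in AGS, and ANKRD1 (-0.15), AXL ILMN_1701877 (-0.012) and PTPN14 (-0.15 and -0.00488) between the lines. ANKRD1 between the lines was also -0.00759 without background correction and -0.00259 with an offset of 50. With 1 array left out, AMOTL2 in AGS ran over -0.20 to 0.069, and between the lines ANKRD1 over -0.26 to 0.20, AMOTL2 over -0.27 to 0.079, AXL ILMN_1701877 over -0.011 to 0.31, PTPN14 ILMN_1917341 over -0.028 to 0.046 and PTPN14 ILMN_1750240 over -0.096 to 0.24. None of the turned values outside the value table had passed the test in the signals, and the cause of the turned signs was not tested. Counted once for each probe, comparison and array left out, a call was lost 44 times and made 9 times. Call and sign both stayed in 439 cases and the sign turned in 12, and the same call can count more than once. Over probes and comparisons, the plain t-test ended 10 calls and testing without a filter ended 8. Arrays were left out of the signals only, the value table cannot give the line comparison, and a slide block was not run because the headers name no slide. With 3 arrays a group, probes near background, such as AXL and ILMN_1661372 of AJUBA, have little signal to measure a change with.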
